A study of Mus musculus with 3 samples.

Results

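The chromosome 2 olfactory receptor cluster was taken as every listed SNP between positions 85000000 and 90100000 of chromosome 2 in the mouse genome build GRCm38. This interval held 425 of the 452304 listed SNPs, which the tables assign to 103 of 30212 gene entries. Position alone chose the members and no allelic value entered the rule, although the interval was chosen with earlier results of these data known. Of the 103 entries, 89 carry olfactory receptor names (Olfr) with 358 SNPs, and 14 do not. A pair of IDs fell on the receptor Olfr1110, so the 89 entries stand for 88 receptors. P2rx3, the first member, has 1 SNP before the interval, which was left out.

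Exomes of genomic DNA were sequenced for 3 recipient mice, with 1 library per animal. Donors and recipients were female F1 hybrids of a C57BL/6 (B6, C57BL/6J in the methods) mother and a CAST/EiJ (CAST) father, and the recipients had been sub-lethally irradiated before they received hematopoietic stem cells (HSCs), so that host cells remained and the donor-derived cells were sorted by their Ly5 allele. E6.2 is the polyclonal animal, which received 50 HSCs of donor animal 6, and its library came from 58000 B220+IgM+ B cells (spleen in the labels, bone marrow in the methods). E6.43 is monoclonal, with 1 HSC of donor animal 6 and 250000 CD4+CD8- thymus T cells, and E15.10 is monoclonal, with 1 HSC of donor animal 15 and 177000 cells of the same kind. The allelic imbalance (AI) is the maternal (B6) count over the sum of maternal and paternal (CAST) counts. The libraries held 19471576, 13036005 and 10863972 counts of either allele for these animals in that order, which is kept for all values given in threes. With 1 library per animal no value has a replicate error, and clonality cannot be told apart from cell type. E15.10 is also the sole library of donor animal 15. Its differences from the E6 libraries therefore cannot be told apart from those of donor, experiment or library. All intervals given are 95% intervals for counting error only (Wilson for shares, and Wilson of the pair's counts turned into a ratio for relative depth). Reads amplified by PCR without molecular identifiers are not independent molecules, and neighbouring SNPs share fragments. DNA counts carry no expression markers, so the cell types are those of the labels.

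Olfactory receptors are G protein-coupled receptors of the nose, and each mature olfactory neuron expresses a single allele of a single receptor gene. Their coding regions usually lie in a single exon, and the genes stand in clusters of near relatives that arose by repeated local duplication. Genomic DNA carries both parental copies whether or not a gene is expressed. The comparison made here is therefore of the DNA itself, in the range of AI that the study's methods keep, with genes under 0.25 or over 0.75 set aside.

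The receptors that left this range in more than 1 library, Olfr1049 and Olfr1028, each have a near-identical copy, and the reference windows around their SNPs show how alike the copies are. All windows were read from the plus strand of GRCm38, and capitals mark the listed SNPs of the gene named. Olfr1049 and its nearest relative Olfr1051 lie 20.794 kb apart and differ at 12 of 924 coding bases. The windows chr2:86255298-86255418 and chr2:86276092-86276212 surround the best covered SNP listed in both, and differ from each other at base 95 only. Olfr1028 and Olfr1029 lie 24.18 kb apart and differ at 19 of 972 coding bases. The window chr2:85951307-85951427 holds all 3 listed SNPs of Olfr1028, and the matching window of Olfr1029, chr2:85975487-85975607, is identical in the reference and has no listed SNP.
Olfr1049: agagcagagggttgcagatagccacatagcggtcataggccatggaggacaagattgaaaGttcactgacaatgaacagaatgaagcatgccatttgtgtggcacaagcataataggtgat
Olfr1051: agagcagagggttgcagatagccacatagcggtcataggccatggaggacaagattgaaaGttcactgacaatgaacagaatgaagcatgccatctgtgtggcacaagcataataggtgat
Olfr1028: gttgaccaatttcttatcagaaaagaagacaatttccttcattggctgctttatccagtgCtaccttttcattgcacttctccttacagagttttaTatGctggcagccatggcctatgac
Olfr1029: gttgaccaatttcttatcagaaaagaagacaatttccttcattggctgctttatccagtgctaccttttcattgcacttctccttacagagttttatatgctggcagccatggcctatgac

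A further set of windows bears on depth and on how SNPs were counted. Olfr1215 (chr2:89001991-89002111) and Olfr1214 (chr2:88987559-88987679) are the receptors with the lowest and the highest depth in E15.10 relative to E6.2, and Tnks1bp1 (chr2:85062491-85062611) is the member with a coding SNP that had the highest. The GC content of 301 bp around the SNP shown was 42.5% in Olfr1215, 40.5% in Olfr1214 and 55.5% in Tnks1bp1. Olfr1002 (chr2:85647361-85647481) shows 5 SNPs within a single read length, of which 4 lie within 5 bases and had 73 to 76 counts (E6.2), 44 each (E6.43) and 17 to 19 (E15.10).
Olfr1215: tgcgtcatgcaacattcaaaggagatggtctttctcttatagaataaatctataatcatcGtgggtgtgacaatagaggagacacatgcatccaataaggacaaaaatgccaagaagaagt
Olfr1214: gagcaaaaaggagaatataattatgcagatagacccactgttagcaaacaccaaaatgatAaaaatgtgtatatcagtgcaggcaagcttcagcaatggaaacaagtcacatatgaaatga
Tnks1bp1: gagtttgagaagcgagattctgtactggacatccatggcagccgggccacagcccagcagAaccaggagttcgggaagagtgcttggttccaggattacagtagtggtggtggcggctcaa
Olfr1002: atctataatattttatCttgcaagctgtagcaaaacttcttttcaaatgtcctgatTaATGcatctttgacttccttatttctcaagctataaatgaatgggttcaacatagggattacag

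The receptors of the interval were sparsely marked by SNPs. GENCODE annotates 277 Olfr genes there, of which 88 (31.8%) had a listed SNP, against 818 of 1122 (72.9%) on the autosomes elsewhere. Listed IDs absent from GENCODE were named by position in the interval alone, so receptors elsewhere with such IDs are missing from the 818. Among receptors annotated as something other than a pseudogene the shares were 72 of 219 (32.9%) and 752 of 909 (82.7%). There were 0.489 SNPs per kb of annotated receptor exon in the interval and 1.90 elsewhere. The SNPs were spread unevenly along the interval. In windows of 500 kb, 26 of 36 annotated receptors were listed between 85500000 and 85999999 (120 SNPs), 15 of 42 between 86000000 and 86499999 (77 SNPs) and 13 of 26 between 88000000 and 88499999 (79 SNPs). In the windows between these, 8 of 27, 8 of 24 and 8 of 36 were listed (13, 60 and 23 SNPs), and beyond them 6 of 24, 2 of 26 and 2 of 20 (5, 2 and 2 SNPs). Only 14 members had 10 or more SNPs and these held 183 of the 425, whereas 37 members had a single SNP.

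No count of either allele was recorded at 69 of the 425 SNPs in any library, and 56 of these lie in the 10 entries without a count. These entries are Lrrc55, 4930443O20Rik, Gm24037, Olfr997-ps1, Olfr999-ps1, Olfr1003-ps1, Olfr1169-ps1, Olfr1174-ps, Olfr1175-ps and the second ID that falls on Olfr1110. Of the remaining members, 90, 89 and 80 reached the minimum of 10 counts in the respective libraries. The median member with 10 counts had 263, 157 and 42 counts in the same order. E15.10 was thus measured at far lower depth here, a difference described further on.

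Both parental alleles were recovered at near equal levels across the cluster in all 3 libraries. Maternal counts numbered 21832 of 40604 (E6.2), 13525 of 25089 (E6.43) and 3548 of 6728 (E15.10). These are maternal shares of 53.8% (53.3 to 54.3), 53.9% (53.3 to 54.5) and 52.7% (51.5 to 53.9). Over all autosomal counts the share was 54.1% in each library. On SNPs of the interval at least 300 bp apart the shares were 52.03%, 51.8% and 51.95%, so that E15.10 did not stand apart from the E6 libraries. For the receptors alone the shares were 53.9%, 54.3% and 52.3%.

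Gene by gene, the median AI of the members was 0.529 (E6.2), 0.526 (E6.43) and 0.527 (E15.10). The autosomal medians were 0.538, 0.538 and 0.537, those of receptors elsewhere 0.527, 0.525 and 0.524, and those of the 75 non-receptor genes within 2 Mb of the interval 0.532, 0.516 and 0.529. The middle 50% of members spanned 0.497 to 0.566 (E6.2), 0.470 to 0.575 (E6.43) and 0.437 to 0.615 (E15.10). The medians of the libraries lay closer together than the width of any of these spans. Receptors annotated as pseudogenes had medians of 0.551 and 0.552 over 10 and 9 genes in the E6 libraries and 0.412 over 7 genes in E15.10, and the other receptors had 0.528, 0.522 and 0.510 over 70, 70 and 63 genes.

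**Figure D1:**
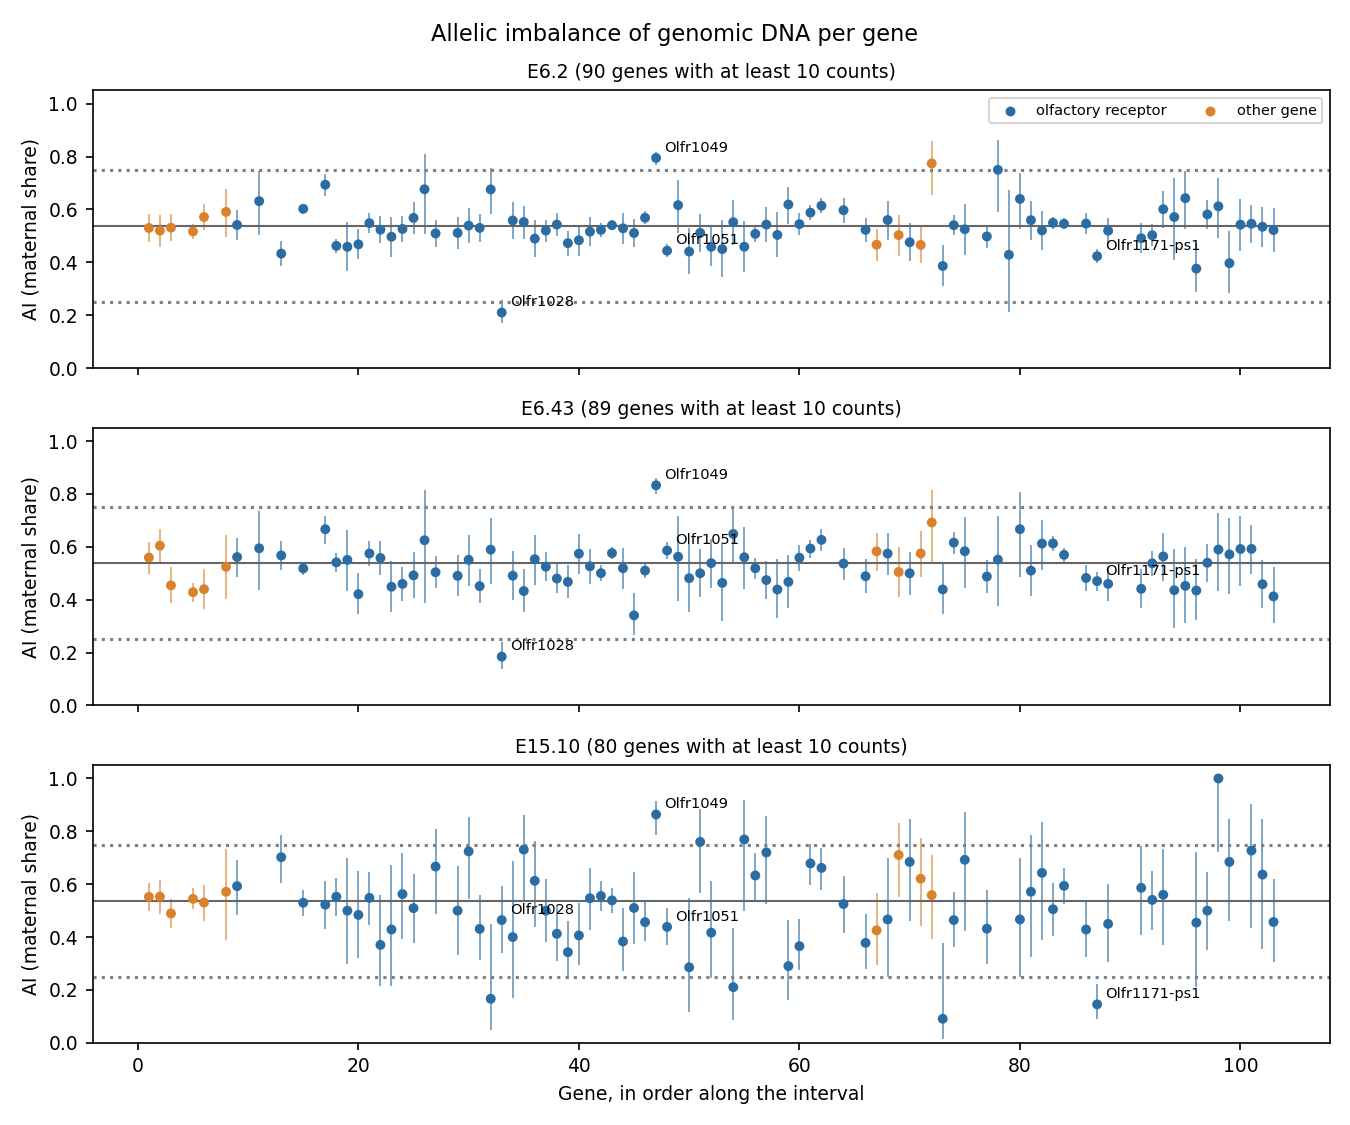
AI (vertical axis, no unit) of each member with at least 10 counts, in order along the interval (horizontal axis), in the 3 libraries. Points are genes and bars 95% Wilson intervals, the solid line is the autosomal median (0.538, 0.538 and 0.537) and the dotted lines are 0.25 and 0.75. Olfr1049 lies above 0.75 in every panel, and Olfr1028 lies below 0.25 in E6.2 and E6.43 alone.

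The spread of AI among members was wider than their counts give. Over SNPs at least 300 bp apart, chosen so that a fragment is rarely counted at more than 1 SNP, the standard deviation of receptor AI was 0.0847, 0.0823 and 0.158 in the respective libraries. Binomial counting at the same depths gives 0.0459, 0.0566 and 0.105. Among all autosomal genes the observed values were 0.110, 0.116 and 0.109 and the counting values 0.0433, 0.0497 and 0.0574. The receptors were thus less spread than autosomal genes in the E6 libraries and more spread in E15.10, where their counts were lowest.

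Few members left the range of 0.25 to 0.75. In E6.2 they were 3 of 90 (Olfr1028, Olfr1049 and the processed pseudogene Gm13736), against 5.32% of all autosomal genes. In E6.43 they were 2 of 89 (Olfr1028 and Olfr1049), against 5.56%. In E15.10 they were 8 of 80, or 1 in 10, against 5.24%. Of these 8, 4 lay below and 4 above, 6 had under 50 counts, 5 had a single SNP, and the counts ran from 10 to 110.

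The share in E15.10 was set beside genes of like depth, a split chosen after the data were seen. Of members with 10 to 49 counts in E15.10, 6 of 43 (14%) lay outside, against 20.3% of autosomal genes and 10.1% of receptors elsewhere in that class. Of members with 50 to 89 counts none of 15 did, against 8.12% of autosomal genes. Of members with 90 or more counts, 2 of 22 did, namely Olfr1049 and Olfr1171-ps1, against 2.54%.

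**Figure D2:**
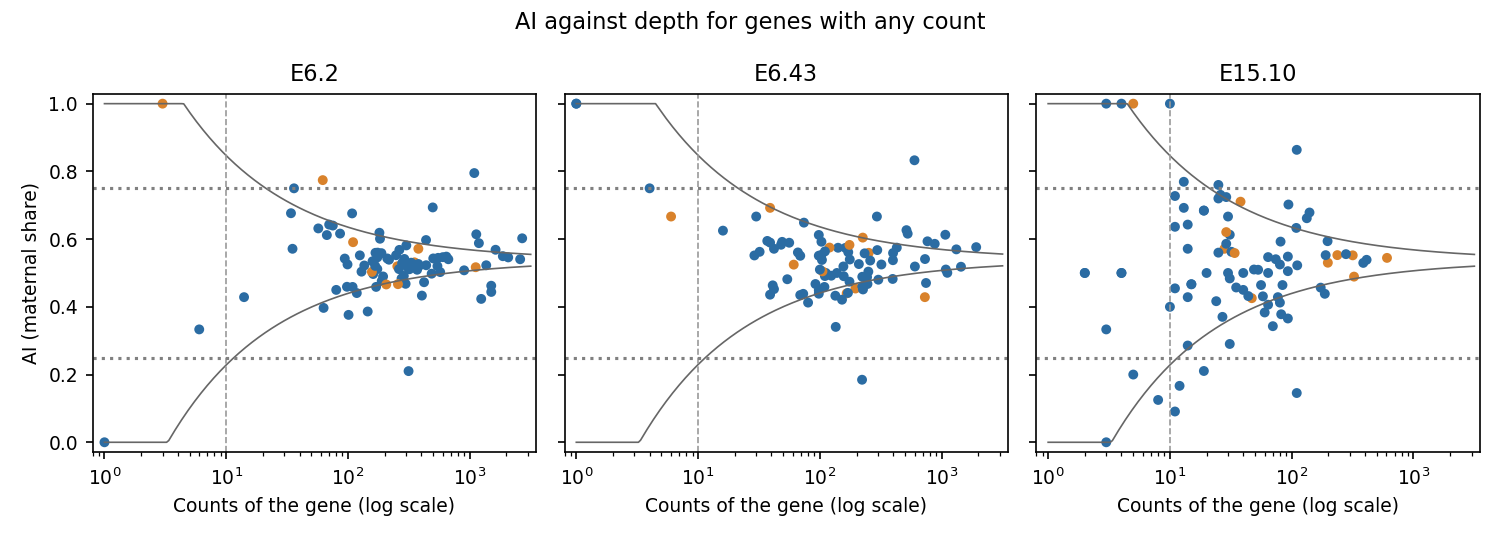
AI (vertical axis, no unit) of each member with any count against its counts (horizontal axis, log scale) in the 3 libraries, with receptors in blue and other genes in orange. Curves are the normal approximation to 95% counting limits around the autosomal median, the dashed line marks 10 counts and the dotted lines 0.25 and 0.75. The points of E15.10 sit further left than those of the E6 libraries, and Olfr1049 (110 counts) and Olfr1171-ps1 (110 counts) lie outside the curves there.

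Over the 80 members measured in all libraries, 70 stayed within the range in each and a single one, Olfr1049, left it in all 3, against 2.22% of the 21802 autosomal genes measured in all. Olfr1028 left it in both E6 libraries, Gm13736 did so only in E6.2, none did so only in E6.43, and 7 did so only in E15.10. These 7 were Olfr1027-ps1, Olfr1080, Olfr1094, Olfr1097, Olfr1131, Olfr1171-ps1 and Olfr1209. At limits of 0.4 and 0.6, Olfr259 was outside in all 3 libraries as well.

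Olfr1049 (chr2:86254357-86258328, minus strand, 8 SNPs in its coding region) is a receptor with no ligand given in the sources used here. Its maternal counts were 865 of 1088 (E6.2), 498 of 598 (E6.43) and 95 of 110 (E15.10), which are AIs of 0.795, 0.833 and 0.864. All 3 libraries were high, and their intervals (0.770 to 0.818, 0.801 to 0.861 and 0.787 to 0.916) overlap. Olfr1051 (chr2:86273814-86279088, 7 coding SNPs) had 666 of 1500, 514 of 877 and 82 of 187, which are AIs of 0.444, 0.586 and 0.439.

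At SNPs that both genes carry, Olfr1051 was lower than Olfr1049 in each library. At the 4 positions listed in both copies Olfr1049 had AIs of 0.776, 0.819 and 0.885, and Olfr1051 had 0.409, 0.543 and 0.423. With the counts of both copies added at these positions, a step chosen after the data were seen, the AI was 0.549 (849 of 1547), 0.645 (579 of 897) and 0.555 (101 of 182). All 3 added values lay within the range, and that of E6.43 remained above the autosomal median by more than counting error. This sum left out the SNPs listed in Olfr1049 alone, at which the reference bases of the copies differ. With all SNPs of both genes added the AI was higher in each library, at 0.592 (1531 of 2588), 0.686 (1012 of 1475) and 0.596 (177 of 297). Of the 121-base window shown above, 1 base differs between the copies, and the share of 31-base stretches near its SNP that occur elsewhere in the genome was 65.3%. Placement of reads of one copy on the other was not tested.

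At single SNPs, with at least 20 counts in each library, 1, 1 and 9 of 111 lay outside the range (0.901%, 0.901% and 8.11%), against 4.54%, 5.54% and 5.63% of 138659 autosomal SNPs. This minimum was set by the shallowest library and left out the SNPs of Olfr1028 (18, 19 and 19 counts in E15.10). With at least 20 counts in the library itself, 12 of 316, 10 of 296 and 9 of 114 SNPs lay outside (3.8%, 3.38% and 7.89%), against 6.36%, 6.84% and 5.77% of autosomal SNPs. The 9 SNPs of E15.10, over the 111, lay in Olfr996, Olfr1002, Olfr1035-ps1, Olfr1039, Olfr1049, Olfr1080 and, with 3 SNPs, Olfr1171-ps1. Within Olfr1049 the excess was not uniform along the gene. AI was 0.888 (158 of 178), 0.918 (67 of 73) and 0.913 (21 of 23) at position 86255260, the sole interval SNP outside the range in all 3 libraries among the 111 SNPs with at least 20 counts in each. Towards the end of the coding region, at position 86255058, it was 0.592 (58 of 98), 0.625 (35 of 56) and 0.692 (9 of 13). The values at this end were nearer to the autosomal median than those of the middle in every library.

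**Figure D3:**
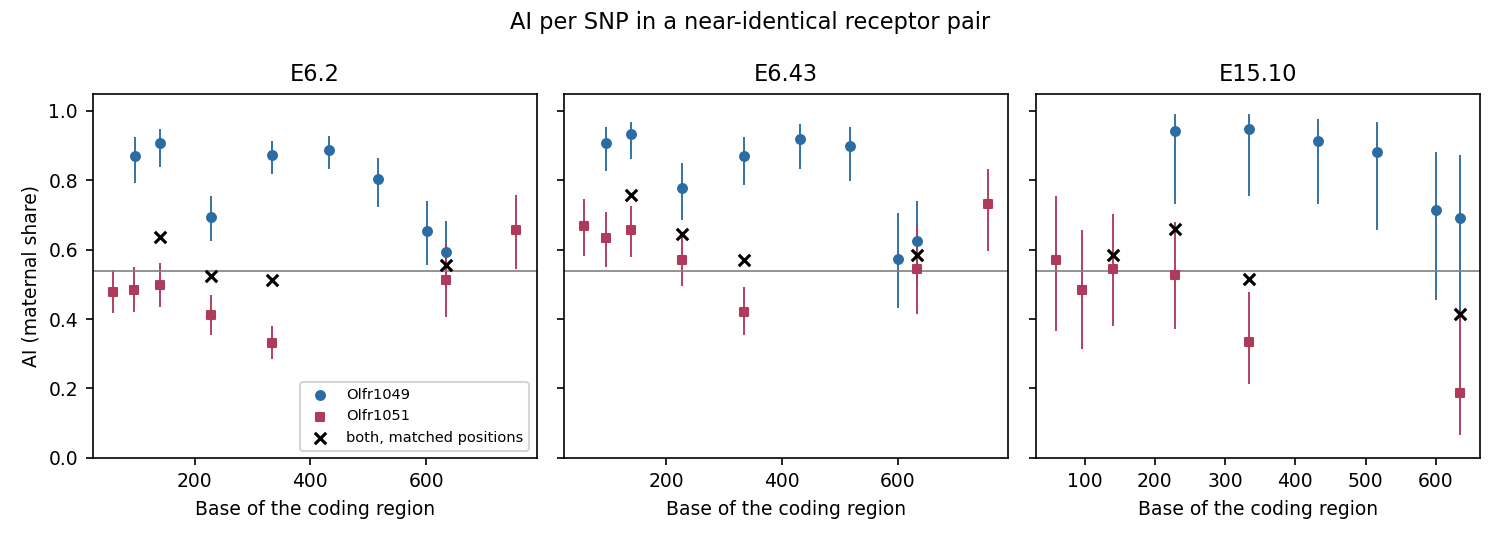
AI (vertical axis, no unit) of each SNP with at least 10 counts in Olfr1049 (circles) and Olfr1051 (squares) against its base in the coding region of Olfr1049 (horizontal axis, bases from the start codon), with 95% Wilson intervals. Crosses are both copies added at matched positions and the line is the autosomal median. The circles lie above the squares at each position listed in both.

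Olfr1028 (chr2:85950437-85953910, plus strand, 3 coding SNPs) had 66 maternal of 314 counts (E6.2), 41 of 222 (E6.43) and 26 of 56 (E15.10). The AIs were 0.210 (0.169 to 0.259), 0.185 (0.139 to 0.241) and 0.464 (0.340 to 0.593). The E6 libraries were low and alike, and E15.10 lay near 0.5. Its identical partner in the window shown, Olfr1029 (chr2:85973895-85978913), had a single SNP outside that window, with AIs of 0.559 over 188 counts, 0.491 over 110 and 0.4 over 10. Every 31-base stretch within 75 bases of the Olfr1028 SNPs occurs elsewhere in the genome. On the widely spaced SNP alone (112, 80 and 18 counts) Fisher's exact test between E6.2 and E15.10 gave an adjusted p of 0.365 and the same test of E6.43 against E15.10 one of 0.514, so the difference between libraries did not pass the test, whereas on the counts of all 3 SNPs both comparisons did.

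Near copies were common in the cluster. For 86 receptors the nearest other mouse receptor was found by nucleotide identity of the coding region (or of the exons of pseudogenes), and in all 86 it lay in the same interval. The identity ranged from 64.2% (Olfr1111) to 98.7% with a median of 91.7%, and 28 receptors had a copy of at least 95%. Of the receptors with at least 50 counts in E6.2, the median distance of AI from the autosomal median was 0.0459 over the 26 with such a copy, 0.0310 over the 31 at 80 to 95% and 0.0225 over the 19 below 80%. In E6.43 the same medians were 0.0476, 0.0508 and 0.0430 over 26, 27 and 14 genes, and in E15.10 they were 0.0957, 0.0935 and 0.0110 over 13, 14 and 5. The order held in the 3 classes of E6.2 and E15.10 but not in E6.43. Olfr1049 and Olfr1028 belong to the class of at least 95%. Olfr1171-ps1, the other receptor with at least 50 counts outside 0.25 to 0.75, belongs to the class of 80 to 95% with a nearest copy at 91.9%, and its distance in E15.10 (0.392) exceeded the largest of the class of at least 95% in that library (0.326).

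Among the receptors with most counts, values stayed near the middle. Olfr1040 had 1400 of 2590, 1107 of 1921 and 222 of 412 maternal counts, with AIs of 0.541, 0.576 and 0.539. Olfr1002 had 1621 of 2691, 747 of 1441 and 205 of 387, with AIs of 0.602, 0.518 and 0.530. Olfr1168 had AIs of 0.546, 0.570 and 0.594 over 2066, 1320 and 197 counts.

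Of the other well covered receptors, Olfr1167 had AIs of 0.550, 0.613 and 0.505 over 1867, 1072 and 93 counts. Olfr1045 had 0.569, 0.510 and 0.457 over 1627, 1082 and 173. On SNPs at least 300 bp apart none of these 5 receptors had an adjusted p under 0.05 between any pair of libraries. On the counts of all SNPs, which count a fragment more than once, Olfr1002, Olfr1045 and Olfr1167 were called between E6.2 and E6.43, and Olfr1002 and Olfr1045 between E6.2 and E15.10. Olfr259, next to Olfr1109 and Olfr1110 in the cluster, leaned maternal in each library, with 694 of 1130, 322 of 514 and 88 of 133 counts and AIs of 0.614, 0.626 and 0.662. Its neighbour Olfr1109 had 0.588, 0.593 and 0.679 over 1187, 765 and 140 counts, and was named after its values were seen.

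Olfr1171-ps1, a transcribed unprocessed pseudogene (chr2:88252643-88258690, 8 SNPs), had 525 of 1240 maternal counts (E6.2), 350 of 744 (E6.43) and 16 of 110 (E15.10). The AIs were 0.423, 0.470 and 0.145, and E15.10 was far below the others. Its SNPs with counts in E15.10 lie close together, and the 20 counts of the widely spaced SNP gave an adjusted p of 0.318 against E6.2 and 0.224 against E6.43 by Fisher's exact test, whereas both comparisons passed on the counts of all its SNPs. Of the other members outside the range in E15.10 alone, several rested on a single SNP, such as Olfr1080 with an AI of 0.760 over 25 counts, Olfr1094 with 0.211 over 19 and Olfr1131 with 0.0909 over 11. In E6.2 and E6.43 these had 0.511 and 0.5, 0.552 and 0.649, and 0.386 and 0.439.

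Counts of a single allele were rare and rested on small numbers. Olfr1209 had 10 of 10 maternal counts in E15.10, and 41 of 67 and 23 of 39 in the E6 libraries. The other members with counts of a single allele had between 1 and 5 counts, namely Gm13733, Olfr1144-ps1, Olfr1001-ps1, Olfr1021-ps1 and Olfr1052. SNPs with counts of a single allele within each of the 3 libraries numbered 2, in the pseudogenes Gm13712 (position 85156820) and Olfr1027-ps1 (position 85932866). In Gm13712 the allele was maternal in each library (1, 2 and 1 counts). In Olfr1027-ps1 it was maternal in E6.2 and E6.43 (8 and 1 counts) but paternal in E15.10 (2 counts). The reference windows of these 2 SNPs, chr2:85156805-85156835 and chr2:85932851-85932881, are given here with the SNP in capitals. Neither SNP had more than 2 counts in E6.43 or E15.10.
Gm13712: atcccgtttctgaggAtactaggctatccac
Olfr1027-ps1: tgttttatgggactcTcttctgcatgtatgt

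Allelic balance was then compared between libraries, gene by gene. The tests compare single libraries, not polyclonal with monoclonal animals, and they treat every count as an independent molecule. Fisher's exact test (two-sided) on SNPs at least 300 bp apart, with Benjamini-Hochberg adjustment over all autosomal genes, called 0 of 89 members between E6.2 and E6.43, where 0.664% of all genes were called. At an unadjusted p under 0.05 there were 6 of 89 members (6.74%) in that pair and 13% of all genes. It called 2 of 78 members between E6.2 and E15.10 (4.75% of all genes) and 2 of 78 between E6.43 and E15.10 (4.77% of all genes). With counts shrunk by overdispersion no member was called in any pair, where 0%, 0.637% and 0.682% of all genes were called. The overdispersion was estimated from the scatter of all autosomal genes around the library median. Lasting differences between genes are part of that scatter, so a lack of calls under it cannot decide whether a member differs.

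The member with the smallest adjusted p was Olfr1000 (chr2:85607037-85611903). It had 175 of 404 maternal counts (E6.2), 168 of 296 (E6.43) and 66 of 94 (E15.10), with AIs of 0.433, 0.568 and 0.702. E6.2 was lowest and E15.10 highest, and the adjusted p by Fisher's exact test was 0.000795 for E6.2 against E15.10, 0.114 for E6.2 against E6.43 and 0.252 for E6.43 against E15.10. Olfr1106, the other member called between E6.2 and E15.10, ran the opposite way with AIs of 0.619, 0.467 and 0.290 over 181, 92 and 31 counts (adjusted p by Fisher's exact test 0.0232). The members called between E6.43 and E15.10 were Olfr1107, with 0.545, 0.559 and 0.366 over 549, 399 and 93 counts, and Olfr1094, and both were lower in E15.10 (adjusted p by Fisher's exact test 0.018 and 0.0225). Aplnr and Olfr1209 were next in that pair and did not pass, with adjusted p by Fisher's exact test of 0.106 and 0.182.

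Each member was also set against the autosomal median of its own library. The exact binomial test called 11 of 90 members (E6.2), 5 of 89 (E6.43) and 10 of 78 (E15.10), where 17.8%, 15.6% and 13.4% of all autosomal genes were called. Of the called members, 8, 4 and 7 were below the median and 3, 1 and 3 above. The autosomal median was taken over all SNPs of a gene, whereas the test used SNPs at least 300 bp apart. On those SNPs the median AI of the members was 0.521, 0.525 and 0.523. The numbers below and above are therefore not on equal terms, and a lean to either side was not tested. Olfr1049 (above) and Olfr1051 (below) were called in all 3 libraries. For Olfr1051 in E6.43 the direction depended on the SNPs, with an AI of 0.450 on the 2 widely spaced SNPs and 0.586 over all 7. With counts shrunk by the same overdispersion none was called in any library, against 2.83%, 2.43% and 2.04% of all autosomal genes. Departures of genes from the median, which this test looks for, are built into that overdispersion, so the lack of calls decides nothing.

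The most uneven feature of the cluster was its depth, not its allelic balance. The interval took 21.5 (21.3 to 21.7) of each 10000 autosomal counts of E6.2, but 19.8 (19.6 to 20) of those of E6.43 and 6.33 (6.18 to 6.49) of those of E15.10. The share of the receptors was 19.8, 18.2 and 4.58 per 10000, which in E15.10 is 0.232 times that in E6.2. The 14 other members had 1.72, 1.64 and 1.75 per 10000, a ratio of 1.02 for E15.10, and the non-receptor genes within 2 Mb a ratio of 1.12. Receptors elsewhere had 408, 381 and 192 per 10000, a ratio of 0.471. For E6.43 against E6.2 the ratio was 0.919 for the receptors of the interval and 0.934 for receptors elsewhere.

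Of 76 receptors with at least 50 counts in E6.2, 75 had a share in E15.10 under 0.5 times that in E6.2, from 0.0379 in Olfr1215 (94, 49 and 2 counts) to 0.537 in Olfr1214 (63, 42 and 19), with a median of 0.223. The ratio of E6.43 ranged from 0.555 to 1.24 with a median of 0.884. Of the 10 other members with that many counts, the ratio of E15.10 was 1.66 in Ssrp1, a subunit of the histone chaperone FACT, 1.64 in Tnks1bp1, a tankyrase-binding protein, 1.62 in P2rx3, an ATP-gated ion channel of sensory neurons, and 0.965 in Aplnr, the apelin receptor. In 4 of the 10 it was under 0.5, namely 0.251 in Pramel6, 0.325 in Nlk-ps1, 0.431 in Gm13730 and 0.453 in 4833423E24Rik, and it was 0.932 in Gm13712 and 0.976 in Gm13736. The pooled ratio of 1.02 was thus carried by the well covered genes at the start of the interval, and the lower depth in E15.10 was not confined to receptors. Nlk-ps1, Gm13730 and 4833423E24Rik were named after their values were seen.

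Depth in E15.10 moved with base composition, and the receptors of the interval are poorer in GC than those elsewhere. The mean GC content of 301 bp around a SNP was 40.8% in these receptors, 44.3% in receptors elsewhere and 46.7% in the other members, and that of the surrounding 100 kb was 36.6%, 39.5% and 42.2%. At SNPs with 40 to 45% GC in 301 bp, the share in E15.10 relative to E6.2 was 0.223 (0.214 to 0.232) in receptors of the interval, 0.339 in receptors elsewhere and 0.628 in other autosomal genes. A stratum of SNPs with 35 to 50% GC whose surrounding 100 kb also matched the interval (35 to 37.9% GC) was then taken. There the ratio was 0.230 (0.223 to 0.237) over 326 SNPs of the interval and 0.272 (0.269 to 0.276) over 1399 SNPs of receptors elsewhere. It was 0.262 (0.247 to 0.279) over 171 SNPs of other genes, drawn from every 50th such SNP. At 35 to 40% GC within this stratum, other genes were lowest at 0.193 (0.169 to 0.220), with the interval at 0.217 (0.204 to 0.231). At 40 to 45% (0.223) and 45 to 50% (0.273) the interval was lowest, with other genes at 0.264 and 0.345. These strata were chosen after the data were seen. Over the whole stratum the values of the groups lay closer together than at 40 to 45% GC without matched surroundings. The part of base composition in the result was not tested.

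**Figure D4:**
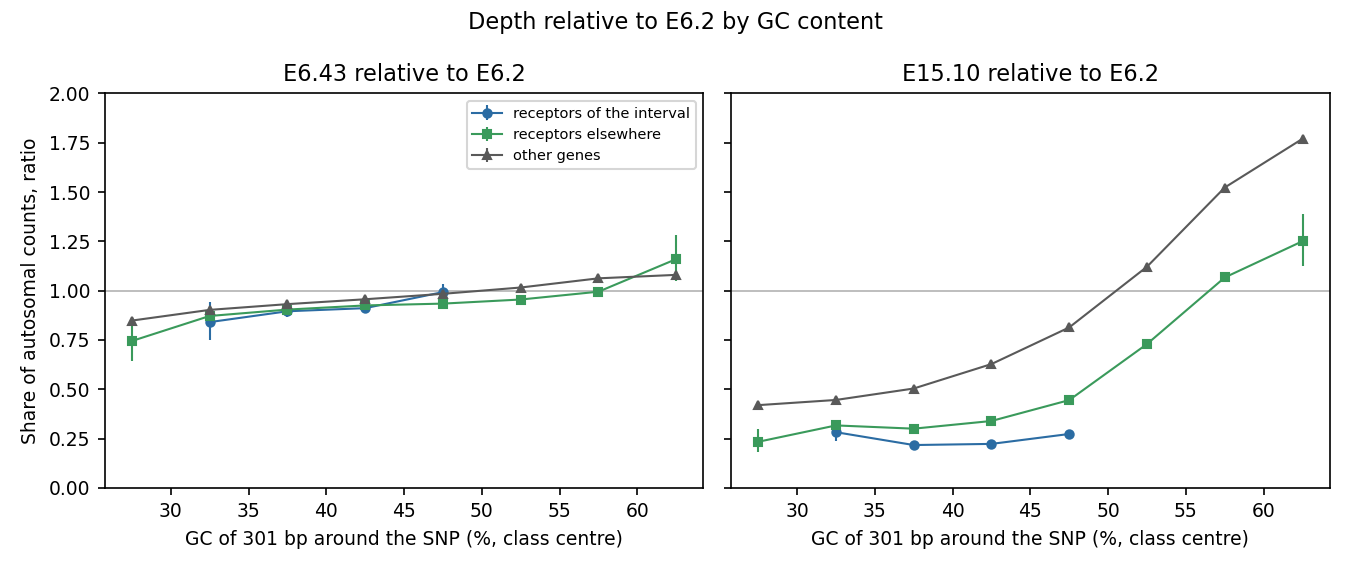
Share of autosomal counts in E6.43 (left) and E15.10 (right) relative to E6.2 (vertical axis, ratio) by GC content of 301 bp around the SNP (horizontal axis, percent), for classes with at least 500 counts in E6.2, with 95% counting intervals. The outermost points stand for all SNPs under 30% and over 60%. In E15.10 the receptors of the interval sit between 0.217 and 0.282, below the other genes at each GC class.

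By chromosome, the receptors of the interval had the lowest ratio of any receptor group with at least 9 genes. The next were receptors of chromosome 16 at 0.308, chromosome 9 at 0.321, chromosome 10 at 0.367 and the rest of chromosome 2 at 0.370. The highest were chromosome 4 at 0.798 and chromosome 15 at 1.04. The counting interval of the cluster (0.225 to 0.239) did not reach that of chromosome 16 (0.300 to 0.317).

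**Figure D5:**
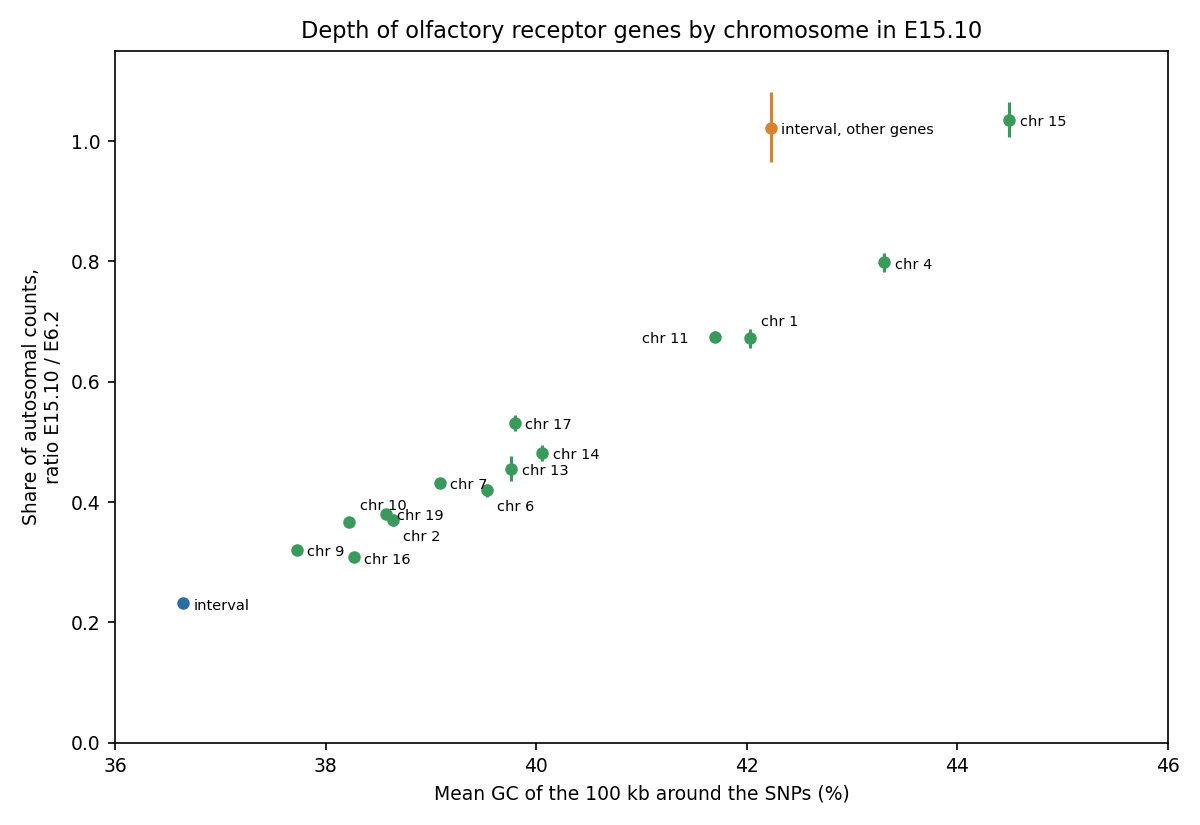
Share of autosomal counts in E15.10 relative to E6.2 (vertical axis, ratio) of receptor genes on each chromosome with at least 9 such genes, against the mean GC content of the 100 kb around their SNPs (horizontal axis, percent), with 95% counting intervals. The receptors of the interval (blue) lie at the low end of both axes, at 0.232 and 36.6%, and the other members of the interval (orange) at 1.02 and 42.2%.

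Along the interval, the first 500 kb holds no listed receptor and had a ratio of 1.2 for E15.10. In the windows of 500 kb that follow, up to the last with a listed SNP, the ratio lay between 0.0863 and 0.277. The maternal share had no such step. In the 5 windows with at least 500 counts in each library it ran from 52.1 to 56.9% (E6.2), from 48.2 to 56.4% (E6.43) and from 47.0 to 54.3% (E15.10). Of 2700 autosomal windows with as many counts, the middle 90% lay between 48.2 and 60%, 47.9 and 60%, and 47.9 and 61.0%. The window from 88000000 to 88499999 in E15.10 was the sole one of the 5 below its library's limits, with 320 of 681 maternal counts (47.0%). Its counting interval was 43.3 to 50.7%, and its counts include the 16 of 110 of Olfr1171-ps1.

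The measured genes next to the interval on either side were balanced. Prg3, an eosinophil granule protein just before it, had 83 of 173, 69 of 120 and 45 of 97 maternal counts (AIs of 0.480, 0.575 and 0.464). The next after it, Olfr1273-ps, carries a receptor name itself, so the interval need not end where the cluster does. Olfr1273-ps had 217 of 460, 149 of 314 and 66 of 131 (0.472, 0.475 and 0.504). The last member, Olfr1252, had 0.522, 0.412 and 0.457 over 136, 80 and 35 counts, and the first, P2rx3, had 0.530, 0.560 and 0.552 over 349, 252 and 317. Gm13712, an unprocessed pseudogene near the start, had 0.571, 0.440 and 0.530 over 378, 166 and 198.

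For comparison, 26 genes of olfactory signalling and receptor choice were measured in all libraries. They include the olfactory G protein subunit Gnal, adenylate cyclase Adcy3, the cyclic nucleotide-gated channel genes Cnga2, Cnga4 and Cngb1, the marker protein gene Omp, the transcription factors Lhx2 and Ebf1 to Ebf4, and the histone demethylase Kdm1a. Their median AI was 0.548, 0.545 and 0.535. Outside 0.25 to 0.75 lay 0, 1 and 0 of the 26, against 5.32%, 5.56% and 5.24% of all autosomal genes. The exception was Atf5 at 0.240 over 25 counts in E6.43. Of the 25 with autosomal counts to test, 0, 2 and 2 differed from the library median by the exact binomial test (Stoml3 and Atf5 in E6.43, Ebf2 and Ehmt2 in E15.10). Of all autosomal genes, 17.8%, 15.6% and 13.4% did. Between E6.2 and E6.43, E6.2 and E15.10, and E6.43 and E15.10, 0, 0 and 2 were called, against 0.664%, 4.75% and 4.77% of all genes. The last 2 were Stoml3, a stomatin family gene of sensory neurons (0.582, 0.619 and 0.505), and Ehmt2, a histone H3 lysine methyltransferase (0.587, 0.467 and 0.605).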

How the data were processed

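Genomic DNA of the sorted cells had been captured with the Agilent SureSelect Mouse All ExonV6 kit and sequenced in pairs. From the reads the authors made maternal and paternal counts per gene and per SNP (ASEReadCounter*), and these counts are the deposited values. Per the labels, reads were handled with cutadapt 1.14, Trim Galore, STAR 2.5.4a, SAMtools and GATK on GRCm38. The methods describe that pipeline for RNA reads, with default STAR filters and only reads that align to 1 place kept, and base the exome counts on it. Removal of duplicates from the exomes is not given in the sources used here. With such a filter, reads that fit several gene copies equally are lost. A further deposited table of the series, with tests, was not used, and columns of no library numbered 0. The deposited gene counts equal the sums of the SNP counts, and no SNP position was listed more than once.

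The SNPs were placed in genes as deposited. Names, strands and coding regions came from GENCODE M21, which held 29309 of the 30212 listed IDs. In the interval, 12 entries whose IDs were not in it were named by position. This was not done elsewhere, so a receptor there with such an ID counts among the non-receptor genes. Sequences were read from the RefSeq GRCm38 genome. A gene needed 10 counts (20 for a SNP). The tests used SNPs at least 300 bp apart, best covered first. They were Fisher's exact test between libraries and the exact binomial test against the autosomal median, two-sided, with Benjamini-Hochberg adjustment over autosomal genes at 0.05. They were run beforehand on simulated binomial counts without overdispersion, which cannot show their error rate in these libraries. Python 3.11.15, scipy 1.17.1, numba 0.67.0 and biopython 1.88 were used. The interval, the gene list and the named genes were chosen with earlier results of these data known. Named were the first and last members, the best covered, those outside the AI range or with the smallest adjusted p, those with counts of a single allele, and the best covered non-receptors. The GC strata, depth classes, matched positions and nucleotide identity (in place of protein identity) were chosen after the data were seen.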

Additional observations from a re-analysis of the deposited data

How the results depend on the processing

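Of 116 alternatives, 68 kept the value within its counting error or the count within 1.5 times, and 48 did not. The members outside 0.25 to 0.75 in E15.10 numbered 2 of 37 with a minimum of 50 counts, 2 of 22 with 90 and 14 of 91 with none. Without a minimum those of E6.2 and E6.43 numbered 5 of 93 and 4 of 93. With a minimum of 90 counts, 2.54% of autosomal genes lay outside in E15.10, and the autosomal shares at the other settings are not given here. At limits of 0.4 and 0.6 they were 19 of 90, 13 of 89 and 32 of 80 in the respective libraries, and 2 of 80 in all 3 libraries. Inside these limits lay 78.9%, 85.4% and 60% of members, against 78.8%, 75.05% and 72.8% of all autosomal genes. With the library median moved to 0.5, the median AI of the E6 libraries was 0.4919 and 0.4878. The maternal share in E6.2 and E6.43 was 52.03% and 51.8% on SNPs at least 300 bp apart, 52.16% and 52.62% on SNPs with at least 20 counts in each library, and 53.06% and 53.19% without Olfr1049. Per 10000 autosomal counts, the interval had 19.53 and 17.51 in the E6 libraries on SNPs at least 300 bp apart, and 19.76, 18.16 and 4.578 with receptors alone. E15.10 had 6.171 from maternal and 6.522 from paternal counts.

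The tests depended most on how counts of neighbouring SNPs and overdispersion were treated. With the counts of all SNPs, Fisher's exact test called 9 members between E6.2 and E6.43, 10 between E6.2 and E15.10 and 8 between E6.43 and E15.10, where 13.8%, 18.8% and 18.7% of all genes were called. For the pairs with E15.10 it called 0 and 0 with counts shrunk by overdispersion (0.637% and 0.682% of all genes), 1 and 0 with a minimum of 50 counts (5.40% and 5.22%), and 0 and 0 with Bonferroni adjustment (1.41% and 1.30%). Against the library median, 19 members in E6.2 and 18 in E6.43 were called with the counts of all SNPs (34.9% and 31.8% of all genes), 0, 0 and 0 with overdispersion (2.83%, 2.43% and 2.04%), and 3, 2 and 0 with Bonferroni adjustment (6.79%, 5.53% and 3.20%). In E15.10, 3 of 17 were called with a minimum of 50 counts (13.8% of all genes). Single SNPs outside the range numbered 9, 7 and 31 of 244 with at least 10 counts in each library (3.69%, 2.87% and 12.7%). Of autosomal SNPs, 5.74%, 7.24% and 7.98% lay outside at that minimum. With at least 50 counts they numbered 0, 0 and 0 of 17, against 3.27%, 3.83% and 2.98% of autosomal SNPs, so few would be found among 17 at the autosomal share. The cause of these shifts was not tested. No paired analysis was possible because each group had 1 library, all numbered 1 in the labels, and for the same reason no library could be left out. Protein identity between receptors was not computed, since no protein sequences were used here. Depth limits E15.10 most, with a median of 42 counts per member.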
